A study of Mus musculus with 5 samples.

Results

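Dendritic nuclei made up 89 of the 53198 liver nuclei that passed the quality limits in 5 single-nucleus RNA libraries. They were chosen by their own UMI counts. A nucleus was counted as dendritic if it carried at least 300 genes, had under 20% mitochondrial UMIs (unique molecular identifiers, 1 per captured RNA molecule), had no UMI of 8 genes of other liver cells (Hnf4a, Ptprb, Pkhd1, Col3a1, Clec4f, Cd3e, Cd79a and Ebf1) and had at least 1 UMI in 2 or more of the 7 genes Flt3, Siglech, Xcr1, Clec9a, Cd209a, Ccr9 and Bcl11a. The 38 nuclei with a Siglech UMI (Siglech-positive) and the 51 without one (Siglech-negative) were described apart. The libraries came from wild-type male C57BL6/J mice, 3 libraries from mice on chow and 2 from mice on a MASH diet. MASH is metabolic dysfunction–associated steatohepatitis, fatty liver disease with inflammation. The MASH diet held cholesterol at 2%, and fat gave 40% and fructose 20% of its energy. Feeding began at an age of 10 to 12 weeks and went on for 5 months. The livers were snap frozen, and nuclei were sorted by flow cytometry before droplet capture. Whether a library held 1 mouse or a pool was not stated, so the library was the replicate. In diet comparisons, p-values set the difference against the spread between libraries. Where library was a block, they set the difference between kinds against how much it varied from library to library.

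Dendritic cells sample antigen and show it to T cells. Conventional dendritic cells carry peptides on MHC class II molecules, and their type 1 branch (Xcr1, Clec9a, Batf3) takes up material from dead cells for display to CD8 T cells, while the type 2 branch (Sirpa, Cd209a, Clec10a) mainly serves CD4 T cells. Plasmacytoid dendritic cells, marked in mice by the sialic acid–binding receptor Siglech, sense viral nucleic acids and release type I interferon, and their identity depends on the E-box factor Tcf4, with Bcl11a, Runx2 and Spib.

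Siglech, which split the nuclei, lies on chromosome 7 (chr7:55768178-55778925, plus strand, GRCm38). The MHC class II genes H2-Aa (chr17:34282744-34287823, minus strand) and H2-Eb1 (chr17:34305867-34316674, plus strand) were among the genes that differed between the 2 kinds. Their promoter windows are shown because Siglech split the nuclei and the MHC class II genes were a group that differed between the kinds. Each runs 5′ to 3′ on the gene's strand from 250 bases before to 50 bases after the RefSeq start (GRCm38.p6). The positions are chr7:55767934-55768233 for Siglech, chr17:34287774-34288073 for H2-Aa and chr17:34305617-34305916 for H2-Eb1. Capitals mark an E2 box (CAGGTG or its complement CACCTG, the kind of site bound by E proteins such as TCF4) in Siglech and a Y box (CTGATTGG or its complement CCAATCAG, an element of MHC class II promoters) in the other two.
Siglech: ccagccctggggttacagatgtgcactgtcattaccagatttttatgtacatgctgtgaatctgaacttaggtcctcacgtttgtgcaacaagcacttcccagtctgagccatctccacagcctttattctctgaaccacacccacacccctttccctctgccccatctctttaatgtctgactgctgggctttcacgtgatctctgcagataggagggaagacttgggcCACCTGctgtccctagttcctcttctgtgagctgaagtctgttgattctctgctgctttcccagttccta
H2-Aa: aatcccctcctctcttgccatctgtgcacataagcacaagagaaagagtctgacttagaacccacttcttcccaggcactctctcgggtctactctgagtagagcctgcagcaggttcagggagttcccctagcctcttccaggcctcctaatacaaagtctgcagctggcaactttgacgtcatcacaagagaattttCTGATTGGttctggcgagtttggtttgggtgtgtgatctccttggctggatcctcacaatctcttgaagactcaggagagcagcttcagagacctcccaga
H2-Eb1: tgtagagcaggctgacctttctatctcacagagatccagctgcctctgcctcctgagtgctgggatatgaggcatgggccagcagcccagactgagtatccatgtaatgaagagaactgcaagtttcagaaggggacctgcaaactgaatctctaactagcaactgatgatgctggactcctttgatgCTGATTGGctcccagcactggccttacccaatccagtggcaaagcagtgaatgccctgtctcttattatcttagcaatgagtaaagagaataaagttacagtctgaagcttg
Both strands were searched, and the motifs can overlap where CACCTG runs on into CTGATTGG. The E2 box stood in 20.0% of all 27025 promoter windows and in 4 of the 16 windows found for genes higher in Siglech-positive nuclei (Ccr9, Irf2bp2, Mctp2 and Siglech). The Y box stood in 4.32% of all windows and in 2 of the 7 windows found for genes lower in Siglech-positive nuclei, those of H2-Aa and H2-Eb1. It also stood in 1 of the 16 windows of the higher genes, that of Fyb. A match describes the letters in these windows and does not show that a factor bound there.

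The libraries held 35612373 to 49137377 UMIs, with a median of 1893 to 3781 UMIs per barcode, and 53198 of 57080 barcodes passed the quality limits. In MASH replicate 1 only 10057 of 12935 barcodes passed. Each library shared 108 to 153 barcodes with another library, among them 1 dendritic nucleus (MASH replicate 2). Dendritic nuclei held 504 to 7834 UMIs (median 1220). The median was 1200.5 UMIs and 677 genes in Siglech-positive nuclei and 1282 UMIs and 749 genes in Siglech-negative nuclei, so the 2 kinds had similar depth. Their mitochondrial share had a median of 6.32% and 4.28%, respectively. It varied more between libraries, with medians over all dendritic nuclei of 5.15%, 9.59% and 5.72% in chow replicates 1 to 3 and of 11.6% and 2.37% in MASH replicates 1 and 2.

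The genes of the rule describe who the members were. They stayed in the fits across all genes, but their differences are a description and no finding. Of the 89 nuclei, 46 carried exactly 2 of the 7 genes, 35 carried 3 and 8 carried 4 or more. For 20 of them the rule rested on 2 single UMIs. Just outside the rule lay 564 nuclei with 1 of the 7 genes, of which 274 had Clec9a, 99 Bcl11a, 99 Ccr9, 40 Flt3, 23 Siglech, 18 Cd209a and 11 Xcr1. Among Siglech-positive nuclei, Bcl11a, a transcription factor of lymphoid and plasmacytoid cells, was seen in 32 of 38, and Ccr9, a gut-homing chemokine receptor, in 18. The most common set was Siglech with Ccr9 and Bcl11a (11 nuclei), and 11 of the 38 had a single Siglech UMI. Clec9a, a receptor for dead cells, was seen in 14 of the 38 and the growth factor receptor Flt3 in 7. Among the 51 Siglech-negative nuclei, Clec9a was seen in 37, Flt3 in 27, the chemokine receptor Xcr1 in 21, Bcl11a in 21, Ccr9 in 7 and the lectin Cd209a in 5. Clec9a or Xcr1 was present in 40 of them and both in 18. The 5 nuclei with Cd209a had neither, and 6 nuclei had none of Xcr1, Clec9a and Cd209a.

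Not all 7 genes separated dendritic from other nuclei equally. Free RNA was gauged in 13399 nuclei with 2 or more Hnf4a UMIs, the hepatocyte nuclear factor, which were far deeper (medians of 4317.5 to 6678 UMIs per library). There Siglech was seen in 0.134% of nuclei, Flt3 in 0.20%, Bcl11a in 0.373%, Ccr9 in 1.78% and Clec9a in 1.87%. The 1644 macrophage-like nuclei had 2 or more of Clec4f, Adgre1, Vsig4, C1qa, Cd5l, Timd4, Trem2 and Gpnmb. They also had to have under 2 of the 7 genes and no UMI of the excluding genes other than Clec4f. Of them, 15.3% had Clec9a and 0.12% had Siglech, while Xcr1 was seen in none. The limit of under 2 of the 7 genes partly fixed these low shares. In 125 B-lineage nuclei, Bcl11a was seen in 34.4% and Clec9a in 0.8%. Clec9a was thus shared with macrophage-like and Bcl11a with B-lineage nuclei.

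**Figure D1:**
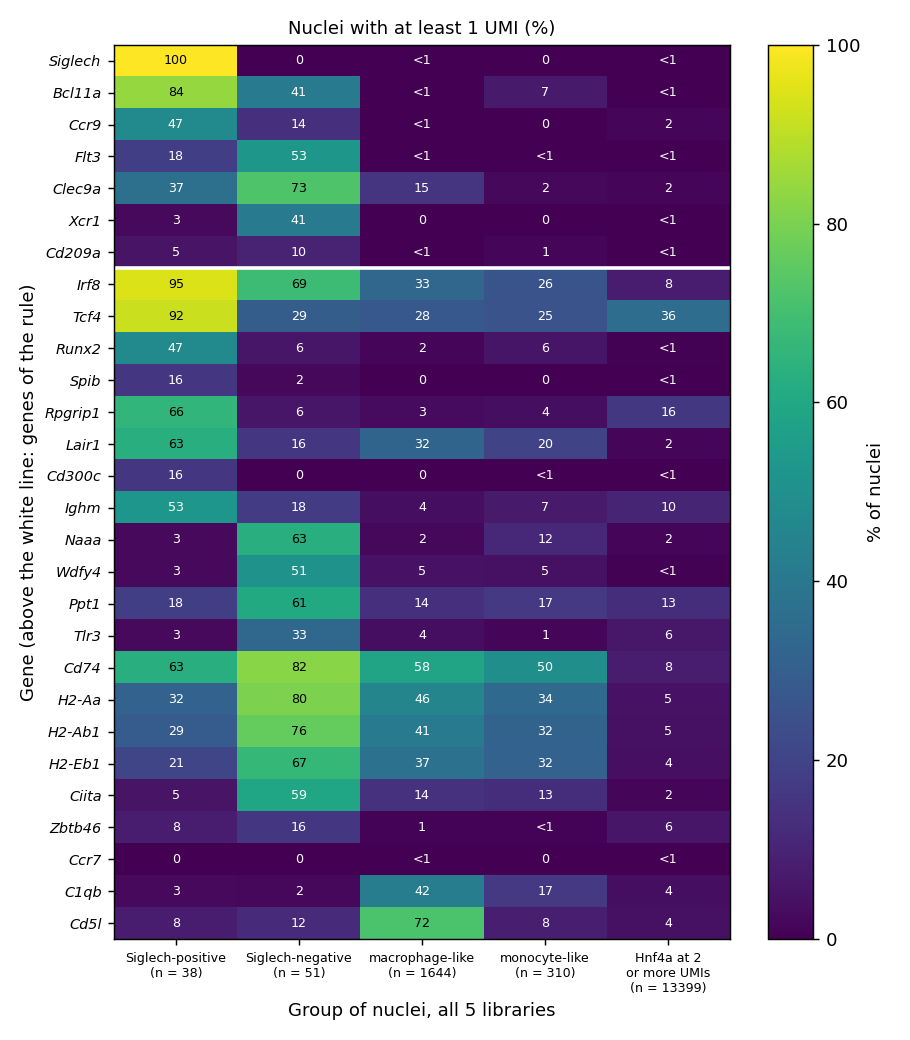
Share of nuclei with at least 1 UMI (%, color and printed value) for genes of the rule (above the white line) and other genes (rows) in Siglech-positive, Siglech-negative, macrophage-like and monocyte-like nuclei and in nuclei with 2 or more Hnf4a UMIs (columns), pooled over the 5 libraries. Tcf4, Runx2, Rpgrip1 and Lair1 were seen more often in Siglech-positive nuclei and Naaa, Wdfy4, Ppt1 and the MHC class II genes in Siglech-negative nuclei.

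The label was set beside markers outside the rule. The marker lists used here and below were chosen with earlier results of these data known, so they are no independent check. All 22 genes of a plasmacytoid list had UMIs in Siglech-positive nuclei, where the list summed to 13560 CPM (UMIs scaled to 1e+06 per sum), against 18 of 22 and 4081 CPM in Siglech-negative nuclei. In Siglech-positive nuclei the sum was 24770, 6159 and 20940 CPM in chow replicates 1 to 3 and 15080 and 13890 CPM in MASH replicates 1 and 2. In Siglech-negative nuclei it was 4557, 2308, 3170, 3913 and 4578 CPM in the same order, below the Siglech-positive value of the same library in all 5. The sparse plasmacytoid markers Spib, Cd300c, Klk1 and Pacsin1 were seen in 6, 6, 4 and 4 of the 38 Siglech-positive nuclei, and Spib alone of them was seen in a Siglech-negative nucleus (1 of 51). All 14 genes of a type 1 conventional list had UMIs in Siglech-negative nuclei (6334 CPM) and 12 of 14 in Siglech-positive nuclei (3892 CPM). By library, this list stood at 8474, 7790, 10300, 4316 and 6886 CPM in Siglech-negative and at 7576, 1920, 4613, 4018 and 4241 CPM in Siglech-positive nuclei, in the order above. It was higher in Siglech-negative nuclei in all 5 libraries, but by little in chow replicate 1 and MASH replicate 1. The plasmacytoid list also stood at 5206, 3505 and 2753 CPM in monocyte-like, macrophage-like and B-lineage nuclei, the first above Siglech-negative nuclei. The type 1 list stood at 1067, 1233 and 966 CPM there, and Irf8 was on both lists. Listed plasmacytoid genes outside the rule thus stood higher in Siglech-positive nuclei and listed type 1 genes in Siglech-negative nuclei. These were sums over all nuclei of a kind. They give no independent support for the names, since the lists were chosen with earlier results known. The plasmacytoid list was not particular to dendritic nuclei.

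Markers of lymphocytes, neutrophils and macrophages had few UMIs. Of 8 T and NK cell markers, 1 had UMIs in each kind (1 UMI in Siglech-positive and 3 in Siglech-negative nuclei). Of 5 neutrophil markers, 1 had a single UMI in Siglech-positive and none in Siglech-negative nuclei. The 12 macrophage markers summed to 19 and 30 UMIs, with C1qb, a complement subunit of macrophages, at 1 UMI in each kind. Other lists were not low. The 12 monocyte markers summed to 1183 CPM (69 UMIs) in Siglech-positive and 1490 CPM (123 UMIs) in Siglech-negative nuclei, against 1372 CPM in macrophage-like and 8842 CPM in monocyte-like nuclei. The 12 genes of a lipid-associated macrophage list summed to 5487 and 4869 CPM, against 11330 CPM in macrophage-like and 2966 CPM in Hnf4a-carrying nuclei. The 6 hepatocyte markers, Alb and Apoa1 among them, summed to 9756 CPM in Siglech-positive and 8393 CPM in Siglech-negative nuclei. The range over libraries was 6652 to 13920 CPM in the first and 5360 to 18620 CPM in the second, and 10230 CPM in the Hnf4a-carrying nuclei themselves. Hepatocyte RNA thus stood near its level in hepatocyte nuclei, and its part in the results was not tested.

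The share of dendritic nuclei was compared between diets. It was 0.154% (13 of 8450 nuclei; exact 95% interval 0.0819% to 0.263%) in chow replicate 1, 0.0638% (8 of 12529; 0.0276% to 0.126%) in chow replicate 2 and 0.0275% (3 of 10925; 0.00566% to 0.0802%) in chow replicate 3. It was 0.298% (30 of 10057; 0.201% to 0.426%) in MASH replicate 1 and 0.311% (35 of 11237; 0.217% to 0.433%) in MASH replicate 2. The MASH values did not overlap with the chow values. The means were 0.0817% ± 0.0651 (SD, n = 3) on chow and 0.305% ± 0.00931 (SD, n = 2) on the MASH diet, a ratio of 3.73 (exact permutation test, two-sided, p = 0.1, adjusted p = 0.2 over the 4 shares tested). With 3 against 2 libraries, p = 0.1 is the smallest the exact permutation test can give, so no share could pass the threshold. The intervals cover counting error only.

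Siglech-positive nuclei took 0.0355%, 0.0319% and 0.0183% of nuclei in chow replicates 1 to 3 and 0.119% and 0.151% in MASH replicates 1 and 2, again without overlap. Their mean was 0.0286% ± 0.00907 (SD, n = 3) against 0.135% ± 0.0226 (SD, n = 2), a ratio of 4.73 (exact permutation p = 0.1, adjusted p = 0.2). Siglech-negative nuclei took 0.118%, 0.0319% and 0.00915% on chow and 0.179% and 0.160% on the MASH diet. Their chow libraries spread over a wider range, from 1 nucleus in chow replicate 3 to 10 in chow replicate 1, and the ratio was 3.19 (exact permutation p = 0.2, adjusted p = 0.267). The Siglech-positive part of all dendritic nuclei was 23.1%, 50% and 66.7% on chow and 40.0% and 48.6% on the MASH diet, which did not separate the diets (difference −2.30 percentage points, exact permutation p = 0.8).

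The size of the share depended on the denominator. The nuclei without Hnf4a UMIs numbered 4035, 4818 and 3481 in chow replicates 1 to 3 and 7162 and 8292 in MASH replicates 1 and 2, so fewer chow nuclei were of this kind. Of these, dendritic nuclei made up 0.322%, 0.166% and 0.0862% on chow and 0.419% and 0.422% on the MASH diet, a ratio of 2.20 in place of 3.73. For Siglech-positive nuclei the ratio was 2.60 and for Siglech-negative nuclei 1.95, and there chow replicate 1 (0.248%) lay above MASH replicate 2 (0.217%). With a mitochondrial limit of 5%, the number of dendritic nuclei was 6, 2 and 1 on chow and 6 and 30 on the MASH diet, and MASH replicate 1 kept 0 of its 12 Siglech-positive nuclei.

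**Figure D2:**
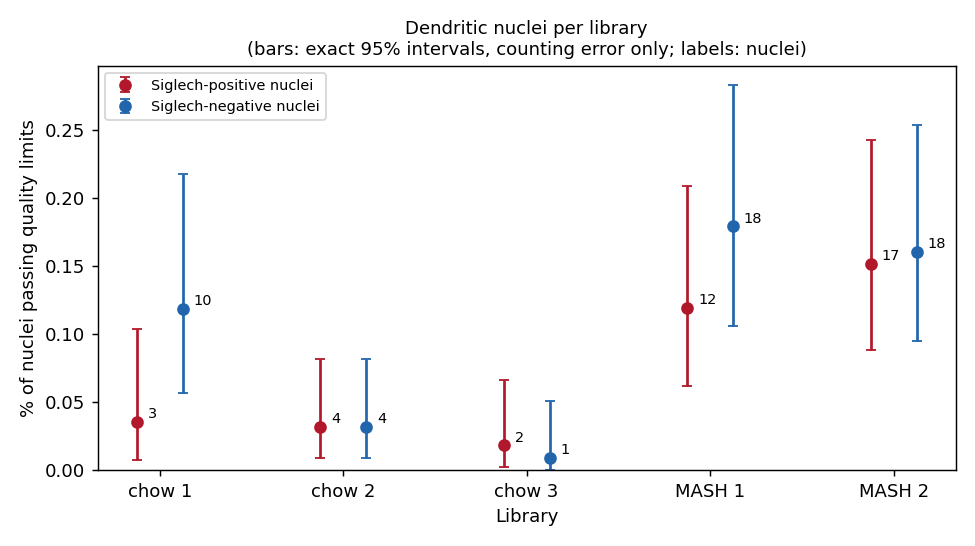
Siglech-positive (red) and Siglech-negative (blue) nuclei as a share of all nuclei passing the quality limits (%, y axis) in each library (x axis); bars are exact 95% intervals for counting error, and the printed labels are numbers of nuclei. The red points lie at 0.0355% or below in chow libraries and at 0.119% or above in MASH libraries, while the blue point of chow replicate 1 (0.118%) comes near those of the MASH libraries.

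Siglech-positive and Siglech-negative nuclei were next compared within library, with UMIs summed per kind and edgeR's quasi-likelihood test. Both MASH libraries had at least 10 nuclei of each kind (12 and 18 in MASH replicate 1, 17 and 18 in MASH replicate 2), which gave 4 sums. With library as a block, few residual degrees of freedom were left, so the p-values lean on an estimate of spread shared across genes. The test is of genes outside the rule, in nuclei that the rule chose. Of 259 genes tested, 29 passed the threshold of adjusted p under 0.05 (11.2%), 19 higher in Siglech-positive nuclei (7.34%) and 10 lower (3.86%). The rule used Siglech and Ccr9, which were among the 19. The direction was the same in both libraries for all 29, as for 56.8% of the genes tested. The number of calls moved with the processing. With nuclei of high doublet scores removed, which took out 2 members, both Siglech-negative, no gene passed, and DESeq2 called 3. The chow nuclei, 1 to 10 of a kind per library, gave values that the fit did not use.

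The higher genes were led by receptors and regulators of plasmacytoid cells. Of the 12 tested genes of the plasmacytoid list, which was chosen with earlier results known, 7 passed as higher and 0 as lower. The 12 had a median log2 difference of 2.45 against −0.0093 over all genes tested. Rpgrip1, Atp1b1, Runx2, Cybb, Lair1 and Tcf4 were among these 7. Tcf4 (chr18:69343356-69689079), the E-box factor that plasmacytoid identity depends on, stood at 2562 and 3215 CPM in Siglech-positive and 528 and 558 CPM in Siglech-negative nuclei of MASH replicates 1 and 2 (log2 difference 2.24 ± 0.48, SE, adjusted p = 3.62e-03). On chow it stood at 8741, 1040 and 4258 CPM in Siglech-positive and 214, 0 and 1189 CPM in Siglech-negative nuclei of replicates 1 to 3. Tcf4 was higher in Siglech-positive nuclei in all 5 libraries and was seen in 35 of 38 against 15 of 51 nuclei, with 35.6% in the deeper Hnf4a-carrying nuclei.

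Rpgrip1 (chr14:52110704-52163546), best known as a scaffold of the photoreceptor cilium, stood at 1048 and 1295 CPM against 93.2 and 37.2 CPM on the MASH diet (log2 difference 3.87 ± 0.61, adjusted p = 2.67e-04) and at 874, 480 and 1419 CPM against 0 in all 3 libraries on chow. Runx2 (chr17:44495987-44814797), a transcription factor of bone and of plasmacytoid cells, stood at 466 and 714 CPM against 124 and 0 CPM (log2 difference 2.94 ± 0.73, adjusted p = 8.05e-03). In chow replicates 1 to 3 it was at 1457, 240 and 710 CPM against 71.2, 0 and 0 CPM. Both genes were thus higher in the Siglech-positive nuclei of every library.

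Signaling and membrane genes filled the rest of the group. Lair1, an inhibitory collagen receptor, was higher by 2.66 ± 0.57 on the log2 scale (adjusted p = 3.62e-03) and was seen in 24 of 38 against 8 of 51 nuclei. Cybb, the catalytic subunit of the phagocyte NADPH oxidase, was higher by 2.69 ± 0.62 and Rabgap1l, a Rab GTPase regulator, by 3.17 ± 0.66. Fyb, an adaptor in T cell and myeloid signaling, was higher by a ratio of 17.9 (counting interval 4.45 to 156). Atp1b1, a subunit of the sodium pump, was higher by a ratio of 10.95 (3.29 to 57.1), and Cmah, which modifies sialic acid, by 9.46 (2.78 to 49.9). Plekhm3, a protein of endosomes, was higher by 2.50 ± 0.62. Lair1, Cybb and Fyb were also seen in 32.4%, 31.4% and 51.2% of macrophage-like nuclei, so that they marked the kind against other dendritic nuclei and not against all liver leukocytes. Ighm, the heavy chain of IgM, was higher by 1.89 ± 0.60 (adjusted p = 0.040) and was seen in 20 of 38 against 9 of 51 nuclei, while the B cell genes Ms4a1, Pax5 and Jchain had no UMI in any of the 89 nuclei (0 of 89 allows a share of nuclei with a UMI of up to 3.37%, which sets no limit on cells that express the gene at this depth).

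The lower genes held MHC class II and type 1 conventional genes. Of the 4 tested MHC class II genes, 3 passed as lower (median log2 difference −2.02), and 2 of the 3 tested genes of the type 1 list did (Naaa and Ppt1, median −1.93). H2-Eb1, whose promoter is printed above, stood at 175 and 179 CPM in Siglech-positive and 838 and 819 CPM in Siglech-negative nuclei of the MASH libraries (log2 difference −2.35 ± 0.55, adjusted p = 6.37e-03). In chow replicates 1 to 3 it stood at 0, 80.0 and 0 CPM against 2421, 2885 and 1981 CPM, so it was lower in the Siglech-positive nuclei of every library. H2-Ab1 (chr17:34257689-34269419), the beta chain of the I-A molecule, differed by −2.11 ± 0.54 on the log2 scale (adjusted p = 8.31e-03) and H2-Aa, its alpha chain, by −1.94 ± 0.51 (adjusted p = 0.0105). H2-Aa was seen in 12 of 38 Siglech-positive and 41 of 51 Siglech-negative nuclei. Cd74 (chr18:60803848-60812652), the invariant chain, differed by −1.31 ± 0.49 and did not pass (adjusted p = 0.099). Ciita, the coactivator that switches on these genes, was seen in 2 of 38 against 30 of 51 nuclei. Of the 3 tested MHC class I genes, none passed.

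Naaa (chr5:92257659-92278170), a lysosomal amidase that is abundant in type 1 conventional cells, had 0 and 179 CPM in Siglech-positive and 652 and 856 CPM in Siglech-negative nuclei of the MASH libraries (log2 difference −3.10 ± 0.71, adjusted p = 5.35e-03). On chow it was at 0 in all Siglech-positive sums and at 1353, 1298 and 792 CPM in Siglech-negative sums. A single Siglech-positive nucleus carried Naaa, against 32 Siglech-negative ones. Ppt1, a lysosomal thioesterase, differed by −1.93 ± 0.52 and Cst3, a cysteine protease inhibitor, by −2.81 ± 0.62. Other type 1 genes had too few UMIs to be tested but showed the same split by nuclei. Wdfy4, needed for cross-presentation, was seen in 1 of 38 against 26 of 51 nuclei, the double-stranded RNA sensor Tlr3 in 1 against 17, Rab7b of late endosomes in 1 against 18 and the transcription factor Batf3 in 1 against 10. Irf8, a factor that type 1 cells require and plasmacytoid cells express, was seen in 36 of 38 and 35 of 51 nuclei and differed by 0.74 ± 0.44 (adjusted p = 0.43). The long noncoding RNA Malat1 differed least (−0.56 ± 0.13). Xdh, C4b and Mlxipl also passed as lower, and these are hepatocyte genes, seen in 82.8%, 95.2% and 98.9% of Hnf4a-carrying nuclei. The part of hepatocyte RNA in their difference was not tested.

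The chow libraries, which the fit left out, mostly had the same direction. Of the 17 higher genes that were not in the rule, 16, 14 and 15 were higher in Siglech-positive nuclei of chow replicates 1, 2 and 3, and of the 10 lower genes, 8, 6 and 8 were lower. Over all 259 genes tested, 59.5%, 50.2% and 52.5% had the direction of the MASH libraries. Xdh had it in none of the 3 chow libraries. With sums of 3 or more nuclei allowed, which brought in chow replicates 1 and 2, 8 of 100 genes passed and 7 of these 8 were shared with the 29. Tcf4 (2.87 ± 0.51, adjusted p = 1.36e-03) was higher, as was Siglech, and Naaa (−3.82 ± 0.77), H2-Eb1 (−3.29 ± 0.56), Cst3, H2-Ab1, H2-Aa and Cd74 (−2.25) were lower.

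**Figure D3:**
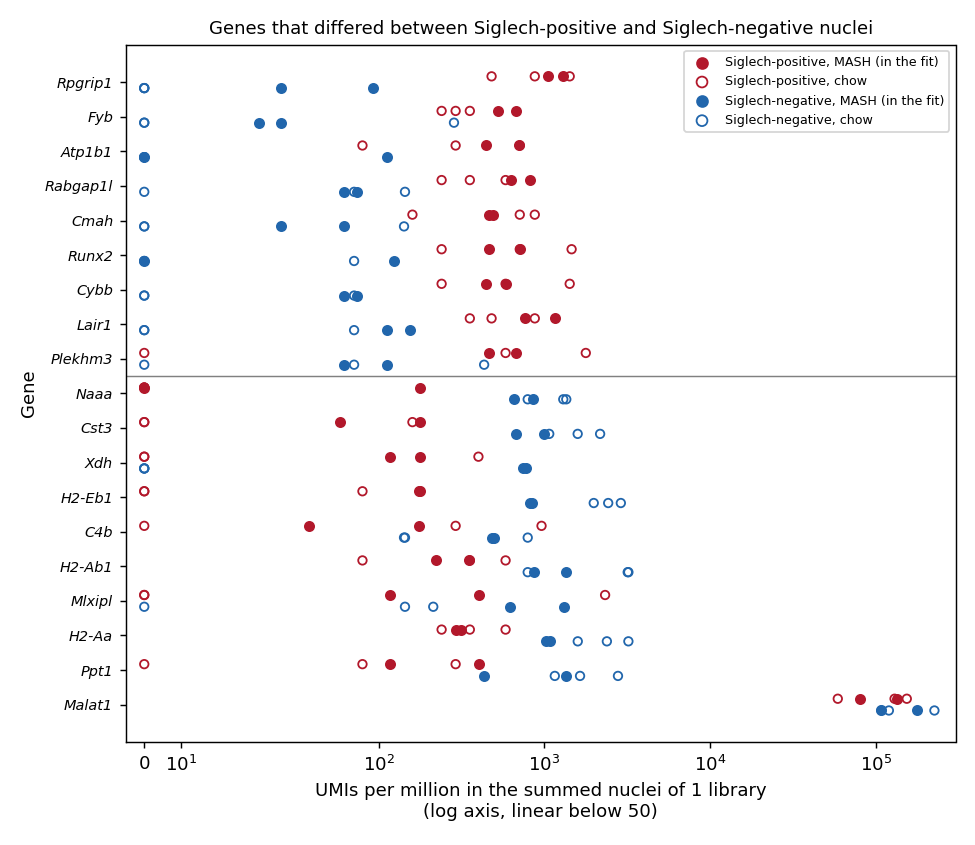
Summed UMIs of a gene in CPM (x axis, log scale, linear below 50) for 9 of the genes with the largest rise (top) and the 10 with the largest fall (bottom) in Siglech-positive (red) against Siglech-negative (blue) nuclei, 1 point per library; filled points are the MASH libraries of the fit, open points the chow libraries outside it. Rpgrip1 and Runx2 have red points right of blue ones in every library and Naaa and H2-Eb1 the reverse, whereas Xdh, C4b and Mlxipl mix in the chow libraries.

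Dendritic nuclei were then set against macrophage-like nuclei of the same library (chow replicate 1 and both MASH libraries). Of 2364 genes, 103 passed (4.36%), 52 higher in dendritic nuclei (2.2%) and 51 lower (2.16%), and 9 of the 103 were genes of the 2 rules. The higher genes joined both kinds of dendritic nuclei. Irf8 (chr8:120736358-120756694) rose by 3.13 ± 0.37 on the log2 scale (adjusted p = 1.4e-03). From the type 1 side came Naaa (5.28 ± 0.48, adjusted p = 1.67e-04), Wdfy4 (3.30 ± 0.46), Ppt1 (2.98 ± 0.42), Tlr11, a sensor of profilin (5.68 ± 0.98), and Jaml, a junctional adhesion molecule, with 22 against 2 UMIs (ratio 236, counting interval 58.1 to 2074). From the plasmacytoid side came Runx2 (4.40 ± 0.49), Rpgrip1 (4.60 ± 0.61), Tcf4 (2.78 ± 0.36), Ptprs, a receptor phosphatase (2.40 ± 0.39), and Cacna1e, a calcium channel subunit, with 24 UMIs against 0, at least 172-fold higher. Cbfa2t3, a transcriptional corepressor (5.19 ± 0.64), Ighm (4.43 ± 0.60), Cyb561a3 of the lysosome (3.79 ± 0.57) and Acap1 (3.88 ± 0.74) were higher as well. Ccr2, the chemokine receptor of cells recruited from blood, rose by 2.82 ± 0.49.

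The lower genes included those of macrophages. An erythroid, an endothelial and an interferon-stimulated gene of the lists were also among them. Axl, a receptor for apoptotic cells, had no UMI in the dendritic sums and 685 in macrophage-like nuclei, at least 10.6-fold lower, and Il18bp, which binds interleukin 18, had 0 against 327 UMIs, at least 5.07-fold lower. Hpgds, a prostaglandin D synthase, had 1 against 624 UMIs (ratio 0.0344, counting interval 0.000871 to 0.193), and the complement gene C1qb had 2 against 840 (ratio 0.0512, counting interval 0.00619 to 0.185). Lpl, lipoprotein lipase, fell by 4.18 ± 0.57 and Mertk, another receptor for apoptotic cells, by 3.31 ± 0.56. Csf1r, the receptor for macrophage colony-stimulating factor, fell by 2.64 ± 0.56. Further genes with 1 to 3 UMIs in dendritic nuclei were Lilr4b, Kcna2, Rgs1, Ptgs1 and Mmp12. Of the 7 tested macrophage markers, 6 passed as lower, some of them genes of the macrophage rule. The MHC class II list stood higher in dendritic nuclei. It summed to 15390, 4010 and 4303 CPM in chow replicate 1 and MASH replicates 1 and 2. In macrophage-like nuclei it summed to 1527, 2575 and 3270 CPM. Its 8 tested genes had a median log2 difference of 1.41, against −0.103 over all genes tested. Only H2-Ob of these 8 passed, and Cd74 (1.40 ± 0.53, adjusted p = 0.26) and H2-Aa (1.15 ± 0.53, adjusted p = 0.40) did not. The count of calls was 241 without chow replicate 1, 64 without MASH replicate 1 and 20 without MASH replicate 2.

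**Figure D4:**
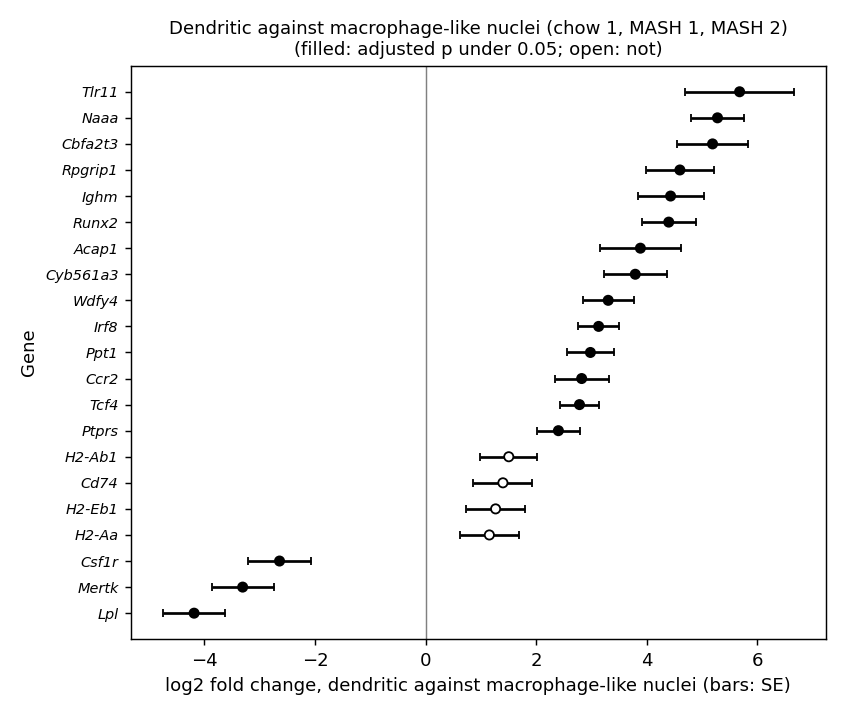
Log2 difference between dendritic and macrophage-like nuclei of the same libraries (x axis, bars are SE) for genes with over 3 UMIs in both kinds (y axis); filled points passed the test and open points did not. Tlr11 (5.68) lies farthest right and Lpl (−4.18) farthest left of the genes drawn, and the 4 open points are MHC class II genes.

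Monocyte-like nuclei (310 nuclei with 2 or more of Ccr2, F13a1, Ly6c2, Chil3, Cx3cr1, Vcan and S100a4) gave 8 calls among 832 genes tested (0.962%), 7 higher (0.841%) and 1 lower (0.12%). All 8 had 1 direction in every library, as had 38.8% of the genes tested. Of these 8, the rule had used Siglech, Flt3, Clec9a and Bcl11a. Monocyte-like nuclei had to have under 2 of the 7 genes of the rule and no UMI of the 8 excluding genes. The calls of these rule genes were thus partly fixed by the choice of nuclei. Irf8 had 2506 ± 409 CPM (SD, n = 3) in dendritic and 239 ± 21.8 CPM in monocyte-like nuclei and was higher by 3.03 ± 0.45 (adjusted p = 0.0328). Ptprs was higher by 2.39 ± 0.36 (adjusted p = 0.0328). Lyz2, the lysozyme of myeloid cells, had 18 against 1377 UMIs (−4.85 ± 0.49, adjusted p = 9.14e-03), and Gm43914 was the remaining call. Tcf4 (2.64 ± 0.55, adjusted p = 0.084), Wdfy4 (3.08 ± 0.52, adjusted p = 0.051) and Naaa (2.49 ± 0.49, adjusted p = 0.068) did not pass, nor did any of 6 MHC class II genes. The monocyte-like nuclei of chow replicate 1 carried 2885 UMIs of S100a8 and 4100 of S100a9, neutrophil genes that had at most 4 UMIs in any other library, and without that library 79 genes passed. Without MASH replicate 1 none did, and without MASH replicate 2 there were 22. The part of neutrophil RNA was not tested.

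The diet comparison within dendritic nuclei used sums of 3 or more nuclei (all 5 libraries). Of 203 genes tested, 8 passed (3.94%), 4 higher (1.97%) and 4 lower (1.97%) on the MASH diet. The 4 lower genes were genes of hepatocytes. Mup7, a major urinary protein, had 0 UMIs on the MASH diet against 36 on chow, at least 28.0-fold lower, and its 3 chow values were 572, 823 and 1872 CPM. Serpina1e, a serum protease inhibitor, had 2 against 63 UMIs (ratio 0.0136, counting interval 0.00161 to 0.0512), Mup17 had 1 against 25 (ratio 0.0171, 0.000417 to 0.105), and Mup11 differed by −4.56 ± 0.87 (adjusted p = 1.44e-05). Their direction was that of the Hnf4a-carrying nuclei, where Mup7 stood at 244, 445 and 447 CPM on chow and 3.2 and 0.7 CPM on the MASH diet. Mup genes are near-identical copies, so reads may be split between them.

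The higher genes were Chka, choline kinase (2.73 ± 0.73, adjusted p = 6.44e-03), the desaturase Scd1 (2.38 ± 0.73, adjusted p = 0.0359), the copper carrier Cp (2.25 ± 0.72, adjusted p = 0.0456) and Gm29966. Chka stood at 172, 206 and 187 CPM on chow and 1296 and 832 CPM on the MASH diet. It was seen in 2 of 13, 4 of 8 and 1 of 3 nuclei on chow and in 5 of 30 and 14 of 35 on the MASH diet, so the 64 UMIs of MASH replicate 1 came from 5 nuclei and the share of nuclei with Chka overlapped between diets. In Hnf4a-carrying nuclei it stood at 1179, 1251 and 2157 CPM on chow and at 1173 and 1309 CPM on the MASH diet, so the rise in dendritic nuclei was not paralleled there. Scd1 stood at 264, 969 and 394 CPM on chow and 1925 and 1272 CPM on the MASH diet in those nuclei. In B-lineage nuclei, Chka stood at 433, 0 and 393 CPM on chow and 488 and 690 CPM on the MASH diet. It was higher on the MASH diet there too without overlap, with 2 nuclei in chow replicate 2. The part of hepatocyte RNA in these values was not tested. None of the tested genes of the plasmacytoid list (5), the type 1 list (4) or the dendritic transcription factors (5) passed. With either MASH library left out no gene passed, and 2 passed without chow replicate 2 and 5 without chow replicate 3.

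Within Siglech-positive nuclei (chow replicates 1 and 2 against both MASH libraries), 2 of 113 genes passed (1.77%), Mup11 with 0 against 20 UMIs (at least 16.6-fold lower, adjusted p = 2.29e-04) and Serpina1e with 1 against 26 (ratio 0.0155, counting interval 0.000378 to 0.0943). The diets did not overlap for either gene, as for 28.3% of the genes tested. The 6 tested plasmacytoid genes had a median log2 difference of 0.36 against 0.0962 over all genes tested, and none passed. With chow replicate 2 or either MASH library left out no gene passed.

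Within Siglech-negative nuclei of the same 4 libraries none of 190 genes passed (0%), although 31 had an unadjusted p under 0.05, and DESeq2 called 4 (Mup7, Serpina1e, Xdh and Gm29966). The count was 9 without chow replicate 2 and 3 with either MASH library left out. In these 4 libraries, the groups did not overlap for 52.6% of the 190 genes. The sums that follow use all 5 libraries, for which this share was not counted. The 11 MHC class II genes summed to 18440 CPM (259 UMIs), 14710 CPM (102 UMIs) and 10700 CPM (27 UMIs, in a single nucleus) in chow replicates 1 to 3 and to 5030 CPM (162 UMIs) and 6290 CPM (169 UMIs) in MASH replicates 1 and 2. All chow values lay above both MASH values. Other lists also separated the diets in these sums. The type 1 list was higher in each chow sum than in either MASH sum (values given above), and the nucleic acid sensing list at 2065, 1587 and 2377 CPM against 745 and 1191 CPM. Some markers of other cells were higher on the MASH diet. The 12 macrophage markers stood at 71.2, 288.5 and 0 CPM against 559 and 335 CPM, the 5 endothelial markers at 0 in all 3 chow sums against 404 and 298 CPM (13 and 8 UMIs), and the 5 stellate markers at 0 against 155 and 186 CPM (5 UMIs each). The hepatocyte, monocyte, cholangiocyte and cycling lists overlapped between the diets. A single UMI made 71.2, 144 and 396 CPM in chow replicates 1 to 3, so values of 0 there lie near the floor. The part of these markers in the MHC class II values was not tested. In Siglech-positive nuclei the sums were 2914, 799.8 and 1065 CPM on chow and 2096 and 1920 CPM on the MASH diet, which overlapped. In macrophage-like nuclei they were 1527, 1887 and 2973 CPM on chow and 2575 and 3270 CPM on the MASH diet, and in Hnf4a-carrying nuclei they were 35.4 to 42.7 CPM on chow and 307 and 264 CPM on the MASH diet. In B-lineage nuclei (2 or more of 6 B cell genes, 125 nuclei) they were 7437, 7269 and 9132 CPM on chow and 4329 and 5814 CPM on the MASH diet. These sums rested on 29, 2 and 11 nuclei on chow and on 49 and 34 on the MASH diet. The value of chow replicate 2 came from 14 UMIs. The level was thus lower on the MASH diet without overlap in B-lineage nuclei as well as in Siglech-negative nuclei, and whether the 2 differed was not tested.

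**Figure D5:**
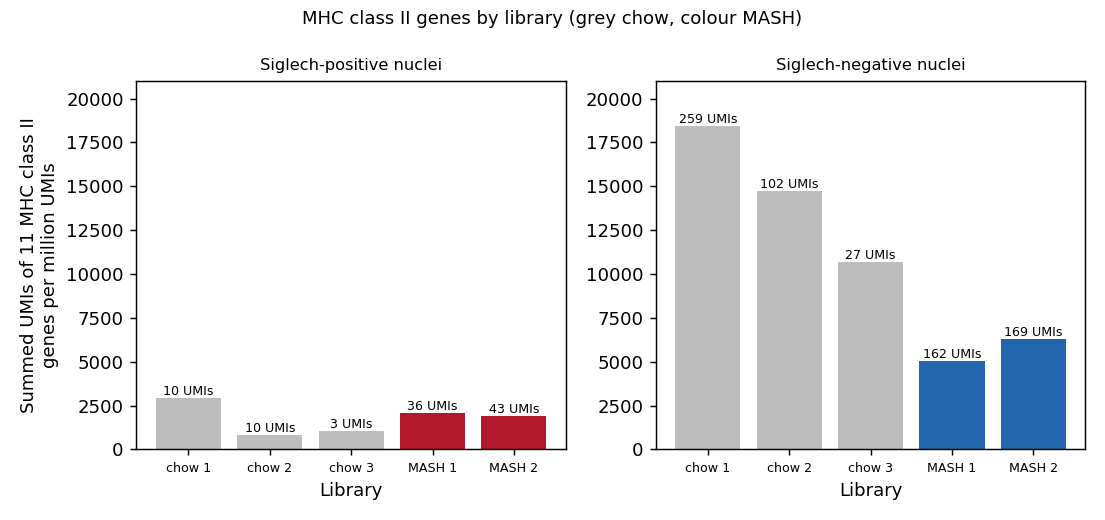
Summed UMIs of 11 MHC class II genes in CPM (y axis, from 0) in Siglech-negative and Siglech-positive nuclei of each library (x axis, grey chow, color MASH); labels give the UMIs behind each bar. Siglech-negative nuclei run from 10700 to 18440 on chow and from 5030 to 6290 on the MASH diet, and the Siglech-positive bars overlap.

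Gene by gene, these differences did not pass the test. Cd74 stood at 6551, 4905 and 3170 CPM on chow and 1615 and 1675 CPM on the MASH diet in Siglech-negative nuclei (log2 difference −1.50 ± 0.64, adjusted p = 0.298, chow replicates 1 and 2 against MASH). H2-Eb1 differed by −1.35 ± 0.50 (adjusted p = 0.211), H2-Ab1 by −1.23 ± 0.55 (adjusted p = 0.305), Ciita by −1.20 ± 0.58 (adjusted p = 0.333) and H2-Aa by −0.94 ± 0.57 (adjusted p = 0.391). The median of these 5 was −1.23, against 0.0004 over all 190 genes. Clec9a, a gene of the rule, also stood higher in 2 of the chow sums, at 1923, 1587 and 396 CPM on chow and 497 and 856 CPM on the MASH diet. The median mitochondrial share of these nuclei was 4.56%, 10.8% and 10.5% on chow and 8.95% and 1.19% on the MASH diet, which did not separate the diets. The difference of the diet effect between the 2 kinds was tested over 188 genes, and none passed (0%). For Cd74 it was 2.28 ± 0.79 and for H2-Eb1 2.93 ± 1.33 (both adjusted p = 0.587). There 16 genes had an unadjusted p under 0.05, and DESeq2 called 0.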

How the data were processed

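Nuclei from snap-frozen livers were sorted, captured with 3′ droplet chemistry and sequenced. The deposited matrices hold raw UMI counts, which the authors made with Cell Ranger 8.0.1 on GRCm38, leaving out intronic reads according to the methods. Counts were used as deposited, and libraries were grouped by title. The members, lists and tests were chosen with earlier results of these data known. Gene coordinates came from GENCODE and promoters from RefSeq.

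UMIs were summed per library and kind and tested with edgeR 4.0.16 (R 4.3.3, quasi-likelihood, TMM, filterByExpr with min.count 10, Benjamini-Hochberg, called under 0.05). Library was a block for comparisons of kinds. Sums needed 10 nuclei in comparisons of kinds. Only 1 chow library had 10 dendritic nuclei, so diet comparisons took 3, a choice made after the numbers were seen. Shares were tested by two-sided exact permutation (scipy 1.17.1). Doublets were kept. Scrublet (scanpy 1.11.5) called 0 to 11 nuclei per library, and the alternative removed the highest scores at 0.8% per 1000 nuclei. Other alternatives were DESeq2 1.42.0, other filters on genes and nuclei, and libraries left out. Fits were tested on simulated data.

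Named genes were those called with at least 20 UMIs and the same direction in every library or no overlap between diets, the 10 largest in each direction without ribosomal, mitochondrial, Gm or Rik genes, plus genes of the marker and pathway lists. Gm43914 and Gm29966 fall outside this rule and were named after their values were seen. Some genes that the rule would name are not reported here. The depth of a sum, 504 UMIs or more per nucleus, limits each level. Intervals cover counting error only, since a count of UMIs says nothing of the spread between mice.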

Additional observations from a re-analysis of the deposited data

How the results depend on the processing

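The diet differences in shares kept their sign under every alternative run. Leaving out 1 library gave 0.196 to 0.259 percentage points for dendritic nuclei, 0.0907 to 0.123 for Siglech-positive and 0.0944 to 0.149 for Siglech-negative nuclei. With edgeR on numbers of nuclei, the log2 difference was 2.21 for Siglech-positive nuclei (adjusted p = 0.0305), and 1.97 (adjusted p = 0.281) with the replicate block. The Siglech-positive part changed sign with 3 of the 7 genes required (1.59) and spanned −14.05 to 7.75 with 1 library left out (7.75 without chow replicate 3, 1.99 without MASH replicate 1). Counts of genes called moved most. The 8 diet calls in dendritic nuclei became 3 with no filter, 5 with min.count 20, 3 with 3 of the 7 genes, 0 with mitochondrial share under 5%, 3 with the replicate block, 0 with at least 10 nuclei per sum, and 0 to 6 with 1 library left out. The 2 in Siglech-positive nuclei became 1 with DESeq2, 0 with no filter, 0 with min.count 20, and 0 to 2 with 1 library left out. The 0 in Siglech-negative nuclei became 4 with DESeq2, 4 with no filter, 1 with min.count 20, 4 with Storey q-values, 3 with the replicate block, 9 with at least 10 nuclei per sum, and 0 to 9 with 1 library left out. The 29 calls between kinds became 3 with DESeq2, 17 with no filter, 10 with min.count 20, 0 with doublets removed (lowest adjusted p = 0.0553), 3 with no library block and 8 with 3 nuclei per sum. The 8 against monocyte-like nuclei became 35 with DESeq2, 113 with no filter, 18 with Storey q-values, 97 with 3 of the 7 genes (where Cd74 at −1.18 and H2-Aa at −1.30 changed sign), 32 with doublets removed, 5 with no library block, 21 with 3 nuclei per sum, and 0 to 79 with 1 library left out. The 103 against macrophage-like nuclei became 243 with no filter, 176 with 3 of the 7 genes, 158 with 3 nuclei per sum, and 20 to 241 with 1 library left out. The 0 calls for the difference of diet effects became 0 to 2 with 1 library left out. The cause of these changes was not tested. Same-numbered chow and MASH libraries deviated oppositely over 203 genes (correlations −0.279 and −0.120). With 2 MASH libraries, the deviations of replicate 1 mirror those of replicate 2. These signs therefore cannot decide whether the numbers pair libraries. Not run for want of nuclei were 3 of the 7 genes and the 5% limit for Siglech-positive nuclei, for the 2 kinds and for the difference of diet effects, the 5% limit for the monocyte-like and macrophage-like comparisons, 10 nuclei per sum for Siglech-positive nuclei and the difference of diet effects, and the comparison of kinds without 1 MASH library, which leaves no residual degrees of freedom.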

Other observations

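Cycling and mature dendritic genes had few UMIs. The 4 cycling genes summed to 33 UMIs (400 CPM) in Siglech-negative and 7 (120 CPM) in Siglech-positive nuclei. They stood at 257, 143 and 76 CPM in monocyte-like, macrophage-like and B-lineage nuclei, below Siglech-negative nuclei. By library, Siglech-negative nuclei had 0, 1010 and 0 CPM on chow and 528 and 335 CPM on the MASH diet. Mki67, a marker of dividing cells, was seen in 6 of 51 Siglech-negative and 1 of 38 Siglech-positive nuclei (Top2a in 5 and 1). Of 13 genes of mature or migratory dendritic cells, 6 had UMIs in Siglech-negative and 2 in Siglech-positive nuclei, and Ccr7, the receptor that guides dendritic cells to lymph nodes, had none in 89 nuclei (which allows a share of nuclei with a UMI of up to 3.37% and sets no limit on cells that express it). Tlr9, the DNA sensor of plasmacytoid cells, had none either, and Tlr7 had 1 UMI, whereas Unc93b1, which carries these receptors to endosomes, was seen in 18 of 38 Siglech-positive and 30 of 51 Siglech-negative nuclei. Irf7, the interferon regulator, was seen in 3 and 1.

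The 13 genes of a type 2 conventional list stood at 806 CPM in Siglech-positive and 1017 CPM in Siglech-negative nuclei. They stood at 1493 and 1043 CPM in monocyte-like and macrophage-like nuclei. Clec10a was seen in 7 of 38 Siglech-positive and 4 of 51 Siglech-negative nuclei, Sirpa in 10 and 5, and Itgax, the integrin CD11c, in 2 and 20. Ccr2 was seen in 9 and 28 nuclei and Zbtb46, a factor of conventional dendritic cells, in 3 and 8. These numbers of nuclei were not tested.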
